A study of Mus musculus with 4 samples.

Results

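The genes described here encode the mitochondrial respiratory chain and ATP synthase, measured by RNA sequencing in mouse skin. They were taken by symbol, as protein-coding genes of the Nduf, Uqcr, Atp5, mt-Nd, mt-Co, mt-Cytb and mt-Atp families, the Cox4 to Cox8 genes other than Cox6a2, Sdha, Sdhb, Sdhc, Sdhd and Cyc1. The rule itself names symbols only, but it was chosen with earlier results of these data known. It found 106 of the 39179 genes in the count files, 93 encoded in the nucleus and 13 in the mitochondrial genome. One further gene that matched the rule, a second Atp5o identifier, was absent from the files. After a filter on low counts 99 were tested, 90 nuclear and 9 mitochondrial.

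The study compared skin of wild-type (WT) mice with lesional skin of Itch knockout mice (Itch KO), all on the C57BL/6 background, with 2 libraries of total RNA per group. Itch is a ubiquitin ligase. For every sample, also for WT, the phenotype label reads inflammation. No label gives an age, a lesion site or a statement that replicates are separate animals, and p-values thus reflect only how these libraries vary, which may be technical.

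Each library held 15144957 to 16008351 gene reads. Itch stood at 96.6 and 103 CPM (read counts scaled to library size) in the WT libraries and at 11.7 in each knockout. Xist, the X inactivation RNA, stood at 1054 and 630 CPM in WT skin and at 0.946 and 0.891 in knockout skin. The summed level of 4 Y-linked genes was 0.266 and 0.315 CPM in WT skin and 176 and 153 in knockout skin, so genotype and sex cannot be told apart in any comparison below. Among lists of cell type markers, keratinocyte markers summed to 16876 to 19702 CPM in all libraries. Of the 11 tested, 6 were below WT in both knockouts (54.5%, against 30.0% of all genes) and 2 above (18.2%, against 31.2%). DESeq2 called Krt10, Dsc3, Col17a1 and Lor lower (36.4%, against 6.16% of all genes) and Krt14 higher (9.09%, against 7.83%). WT replicate 1 stood apart in 3 other lists. Its skeletal muscle markers summed to 21556 CPM against 3433, 1669 and 1453 in WT replicate 2 and knockout replicates 1 and 2, its hair markers to 43.1 CPM against 6997 to 9547 in the other 3, and its brown fat markers to 95.8 CPM against 369 to 494. The last difference came largely from Elovl3, at 30.2 CPM against 309, 340 and 256 in that order. Cidea and Dio2 were also lowest in WT replicate 1, but Ucp1, Cpt1b, Zic1 and Lhx8 were not. A difference in brown fat content was thus not shown. Fibroblast markers were higher in both knockouts (14160 and 12731 CPM, 8 of 8 genes) than in WT (2221 and 3409 CPM), as were myeloid markers (3800 and 2932 CPM against 479 and 501, 12 of 12 genes). In bulk skin, fewer cells of a type and less RNA per cell cannot be told apart. For the fold change of a single respiratory chain gene, the value without WT replicate 1 is also given where it differs by over 1.5 times or turns sign.

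Complexes I to IV of the inner mitochondrial membrane pass electrons from NADH and succinate to oxygen, and ATP synthase uses the resulting proton gradient to make ATP. Most subunits are made from nuclear genes and imported. A few core subunits are encoded by the mitochondrial DNA, whose genes are read as long transcripts from both strands and cut apart, so that the amount of 1 mature transcript depends on cutting and decay as well as on transcription. Skeletal muscle is rich in mitochondria and expresses its own isoforms of several complex IV subunits.

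The sequences of some mitochondrial genes are shown first because they bear on which of the 13 could be counted. Comparison of each principal transcript with all other annotated transcripts (GENCODE vM21, GRCm38) found 7 unprocessed pseudogenes on chromosome 1 that repeat mitochondrial genes. The copies of mt-Co2, mt-Atp6, mt-Co3 and mt-Nd4l were identical over 681, 678, 783 and 294 bases. The copy of mt-Nd3 differed at 1 of 345 bases. An identical copy of mt-Nd4 covered 63.6% of that gene. The start of mt-Co3 and of its copy Gm28437 is printed as an example of an identical pair.
mt-Co3 (chrM:8607-8697, plus strand): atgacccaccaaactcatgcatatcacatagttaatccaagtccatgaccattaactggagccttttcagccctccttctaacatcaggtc
Gm28437 (chr1:24613881-24613971, minus strand): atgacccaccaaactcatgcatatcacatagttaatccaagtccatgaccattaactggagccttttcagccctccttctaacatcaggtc
The start of mt-Nd3 and of its copy Gm28438 differed by T3C, with positions counted from 1 at the start of mt-Nd3 and the base of mt-Nd3 given first. The differing base is in capitals.
mt-Nd3 (chrM:9459-9506, plus strand): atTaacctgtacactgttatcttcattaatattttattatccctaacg
Gm28438 (chr1:24613072-24613119, minus strand): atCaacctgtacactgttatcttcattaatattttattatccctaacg
Over the last 483 bases of mt-Co1, the copy Gm29216 differed by A1066T, counted from the start of mt-Co1 and again in capitals.
mt-Co1 (chrM:6390-6438, plus strand): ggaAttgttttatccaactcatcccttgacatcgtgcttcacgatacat
Gm29216 (chr1:24616140-24616188, minus strand): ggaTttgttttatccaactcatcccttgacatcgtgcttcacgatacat
The rest of mt-Co1 had no annotated copy on chromosome 1, and its full-length copy on chromosome 2, Gm13340, matched at 97.6% with 37 mismatches.

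Of the 13 mitochondrial genes, 7 carried nearly all reads. In WT replicates 1 and 2 and knockout replicates 1 and 2, mt-Nd1, mt-Nd2, mt-Nd4, mt-Nd5, mt-Nd6, mt-Cytb and mt-Co1 together held 99.98%, 99.98%, 99.99% and 99.97% of the reads of the 13. The remaining 6 never exceeded 30 reads in any library. In the same library order mt-Co3 had 30, 12, 9 and 6 reads, mt-Co2 had 16, 11, 7 and 15, mt-Atp6 had 19, 7, 2 and 7, and mt-Nd3 had 1 in each. No read was counted for mt-Atp8 or mt-Nd4l, which allows levels of up to 0.187 to 0.198 CPM at a floor of 3 counts per library. Each of these genes but mt-Atp8 has a copy that is identical or differs at 1 base. The mt-Atp8 gene (chrM:7766-7969) overlaps the start of mt-Atp6 (chrM:7927-8607). The files held no counts of reads aligned to several places, with that counter at 0 in each library, and 6 of the 7 pseudogenes on chromosome 1 were not among the counted genes. The seventh, Gm10222, had 8, 5, 3 and 0 reads. The part of shared reads in the low counts was not tested, and the levels of these 6 genes are uncertain. The counts of mt-Nd4 are uncertain over its copied part for the same reason. So are those of mt-Co1 over its last 483 bases, where the copy Gm29216 differs at 1 base.

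**Figure D1:**
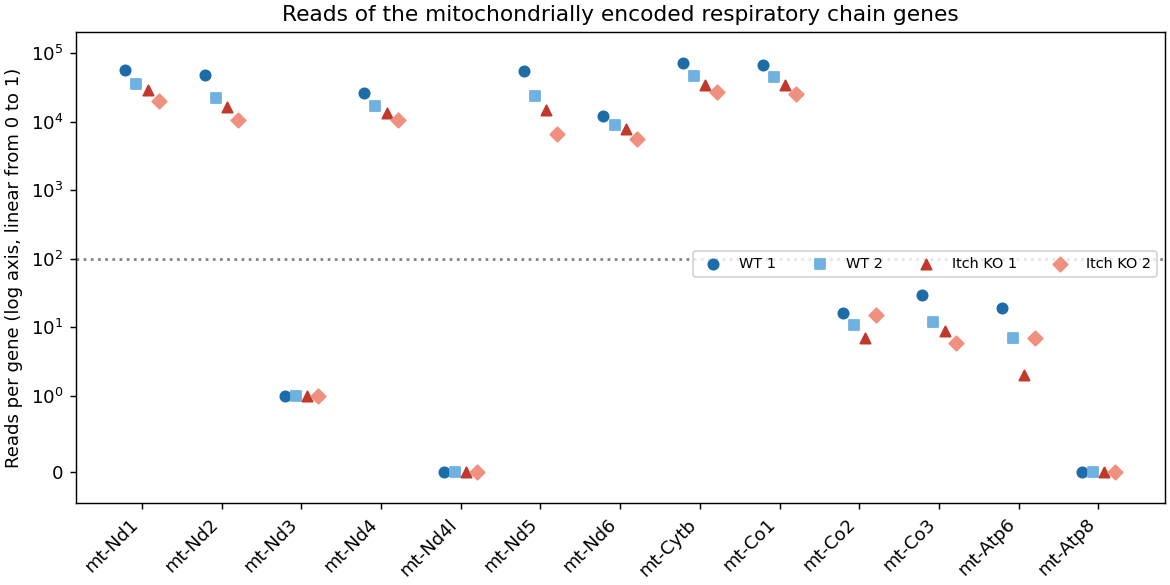
Reads per gene (log axis, linear between 0 and 1) for the 13 mitochondrially encoded genes in the 4 libraries, 1 point per library. The dotted line marks 100 reads. The 7 genes above it run in the same order of libraries, with WT replicate 1 highest and Itch KO replicate 2 lowest, and the other 6 stay at or below 30 reads.

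All 7 of the abundant mitochondrial transcripts were lower in both knockouts than in both WT libraries. The NADH dehydrogenase subunit mt-Nd5 (chrM:11742-13565) had the largest difference, with 3654 and 1493 CPM in WT skin and 917 and 425 CPM in knockout skin. Its log2 fold change (knockout over WT) was -1.94 (SE 0.62), with an adjusted p of 0.185 in edgeR's quasi-likelihood test. The groups did not overlap, but the libraries within each group lay more than 2-fold apart.

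The same order of libraries held for the other complex I subunits. Levels of mt-Nd2 (chrM:3914-4951) were 3165 and 1400.2 CPM in WT skin and 1039.6 and 677 in knockout skin (log2 fold change -1.41, SE 0.49). Levels of mt-Nd1 (chrM:2751-3707) were 3762 and 2198 CPM in WT skin and 1802 and 1251 in knockout skin (-0.97, SE 0.37). For mt-Nd4 (chrM:10167-11544) the values were 1756 and 1053 CPM against 850.2 and 667 (-0.89, SE 0.33). The smallest difference of the 7 was that of mt-Nd6 (chrM:13552-14070), at 809.9 and 559 CPM in WT skin and 498 and 349.8 in knockout skin (-0.69, SE 0.30). It is the only protein encoded on the other strand, and its gene overlaps the end of mt-Nd5. The strand setting of the counting is not given in the sources used here, so without strand, reads of mt-Nd6 and of transcripts opposite to it cannot be told apart.

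Transcripts of the other complexes gave similar values. Cytochrome b (mt-Cytb, chrM:14145-15288), the complex III subunit that oxidizes ubiquinol, stood at 4701 and 2908 CPM in WT skin and at 2155 and 1698 in knockout skin (log2 fold change -0.98, SE 0.32). The catalytic complex IV subunit mt-Co1 (chrM:5328-6872) stood at 4423 and 2827 CPM in WT skin and at 2145 and 1598 in knockout skin (-0.95, SE 0.32). The full-length copy of mt-Co1, Gm13340, had 103, 48, 41 and 21 reads, far below mt-Co1 itself. Per kilobase of transcript, mt-Cytb was the highest of the 13 at a mean of 2505 CPM per kb, followed by mt-Nd1 at 2355 CPM per kb.

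No respiratory chain gene passed the adjusted threshold of 0.05 in edgeR's test, in which 1 of 16651 genes (0.00601%) passed. That gene was the Y-linked Eif2s3y (adjusted p 0.027). In the same test Itch itself (log2 fold change -3.09) and Xist (-9.83) each had an adjusted p of 0.0509. Not passing this threshold therefore does not show that a gene was unchanged. The lowest adjusted p of any of the 99 was 0.176. Without WT replicate 2, which leaves the WT library with the high muscle markers as the only one, 14 of 101 passed, 2 higher and 12 lower, against 15.3% of all genes in each direction. They were mt-Nd1, mt-Nd2, mt-Nd4, mt-Nd6, mt-Cytb, mt-Co1, Cox7a1, Cox8b, Sdha, Uqcrc2, Atp5s and Ndufs1 on the lower side, and Cox4i2 and Cox6a1 on the higher, of which Ndufs1 was named after its values were seen. The lone library is there assumed to vary as the other group does. In either direction, 7 of the 99 had an unadjusted p under 0.05, against 22.8% of all genes. At an unadjusted p under 0.05, 5 of the 9 tested mitochondrial genes were lower (mt-Nd2, mt-Nd4, mt-Nd5, mt-Cytb and mt-Co1) and 0 were higher, against 10.9% of all genes lower and 12.0% higher. By DESeq2, 4 of the 9 were called lower at an adjusted p under 0.05, mt-Nd2 (0.027), mt-Nd5 (0.0077), mt-Cytb (0.031) and mt-Co1 (0.038), and 0 higher, against 6.16% of all genes lower and 7.83% higher. Both knockouts lay below both WT libraries for 8 of the 9, against 30.0% of all genes.

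The median log2 fold change of the 9 was -0.97, against 0.01 over all 16651 genes. Without WT replicate 1, the library with the high muscle markers, it was -0.60, and both knockouts still lay below WT replicate 2 for all 7 abundant transcripts. The fold changes without that library were -1.16 for mt-Nd5, -0.71 for mt-Nd2, -0.60 for mt-Cytb and mt-Co1, -0.53 for mt-Nd1, -0.48 for mt-Nd4 and -0.40 for mt-Nd6. In that comparison edgeR called 0 of the 91 nuclear and 0 of the 9 mitochondrial genes tested at an adjusted p under 0.05, against 5.52% of all genes higher and 2.17% lower. Unadjusted p-values under 0.05 were found there for 5 with higher and 2 with lower levels in knockout skin, against 14.2% and 9.52% of all genes. The spread within groups was of similar size to the difference: the 2 WT libraries differed by a median of 1.67-fold over the 9 genes, and the 2 knockouts by 1.42-fold.

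The make-up of the mitochondrial messages also varied across the libraries. In the order WT replicates 1 and 2 and knockout replicates 1 and 2, mt-Nd5 made up 16.4%, 12.0%, 9.75% and 6.38% of the reads of the 13 genes. The ratio of mt-Nd5 to mt-Nd1 reads was 0.971, 0.679, 0.509 and 0.340 in that order, and that of mt-Nd2 to mt-Nd1 reads 0.841, 0.637, 0.577 and 0.541. The ratio of mt-Nd6 to mt-Nd1 reads ran the other way, at 0.215, 0.254, 0.276 and 0.280. Both knockouts thus lay outside the WT pair in each of the 3 ratios, with neighbouring libraries of different groups close together in the last.

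The ribosomal RNAs of the mitochondrial genome, which are not among the 106 genes, did not separate the groups. The smaller, mt-Rnr1, stood at 556 and 465 CPM in WT skin and at 565 and 436 in knockout skin (log2 fold change -0.03, SE 0.22, and 0.10 without WT replicate 1). The larger, mt-Rnr2, stood at 644 and 525 CPM in WT skin and at 723 and 527 in knockout skin (0.10, SE 0.24, and 0.25 without WT replicate 1). Reads of the 13 protein genes per ribosomal RNA read were 18.6 and 12.6 in WT skin and 7.31 and 6.92 in knockout skin. The effect of library preparation on the ribosomal RNA reads was not tested. Copies of mt-Rnr1 and mt-Rnr2 were not searched for, so the ratio rests on an unchecked reference.

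As a share of all gene reads, the 13 mitochondrial genes made up 2.17% (95% exact binomial interval 2.16 to 2.18%) and 1.30% (1.30 to 1.31%) in WT skin and 0.932% (0.927 to 0.936%) and 0.660% (0.656 to 0.664%) in knockout skin. These intervals cover counting error only. The 93 nuclear genes together made up 1.26% and 1.13% in WT skin and 1.15% and 1.25% in knockout skin, so the nuclear shares of the groups overlapped while the mitochondrial shares did not. The ratio of mitochondrial to nuclear reads was 1.72 and 1.15 in WT skin and 0.813 and 0.527 in knockout skin. Leaving the muscle marker genes out of the total gave mitochondrial shares of 2.22%, 1.31%, 0.933% and 0.661%. Those marker genes themselves took 2.10%, 0.360%, 0.165% and 0.144% of gene reads, the same order of libraries as the mitochondrial share, and the part of muscle in the mitochondrial values was not tested. With 2 libraries a group, an exact two-sided permutation test of a single value cannot go below p = 0.333, so no test of the ratio was made.

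**Figure D2:**
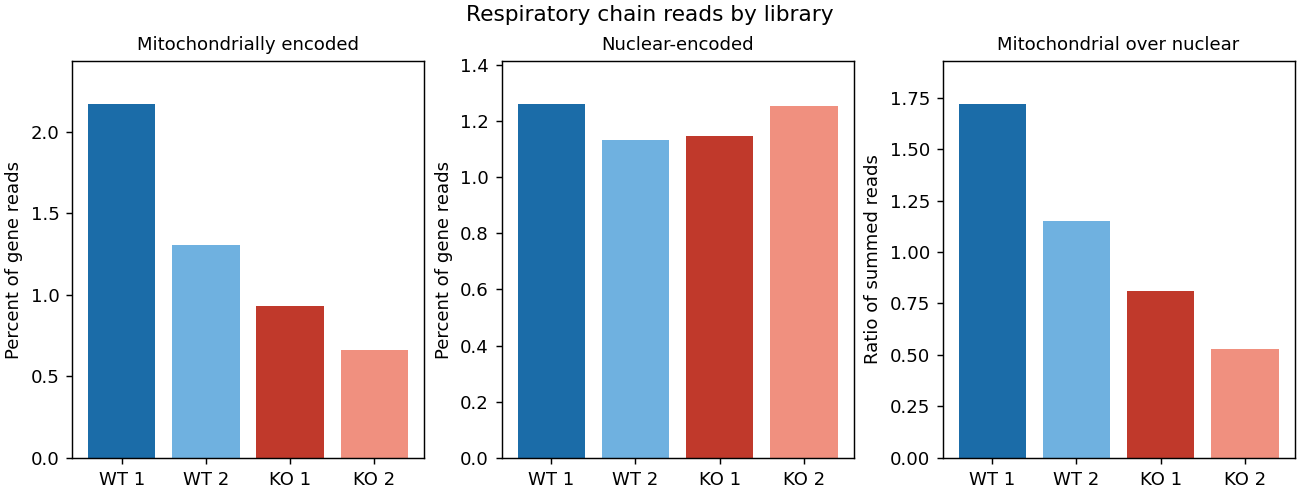
Bars show, for each library, the percent of gene reads from the 13 mitochondrially encoded genes (left) and the 93 nuclear genes (middle), and the ratio of the summed reads (right). The mitochondrial share runs from 2.17% in WT replicate 1 to 0.660% in Itch KO replicate 2, while the nuclear share stays between 1.13% and 1.26%.

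The nuclear genes stayed close to equal between the groups. Of the 90 tested, 82 had a log2 fold change within 0.5 of 0, against 9414 of all 16651 genes. The nuclear median was 0.05, or 0.17 without WT replicate 1. Both knockouts lay above both WT libraries for 31 of the 90 (34.4%), near the 31.2% of all genes, and below for 8 (8.89%, against 30.0%). At an unadjusted p under 0.05 by edgeR, 2 nuclear genes were higher (Cox4i2 and Atp5mpl), or 2.22% against 12.0% of all genes. By the same threshold 0 were lower, against 10.9%. DESeq2 called 1 lower (Cox7a1), or 1.11% against 6.16% of all genes, and 0 higher, against 7.83%. WT replicate 1 was above WT replicate 2 for 72 of the 90, by a median of 1.18-fold, against a median of 1.05-fold over all genes. The 3 untested nuclear genes had few reads: Atp5g2 had 8, 6, 11 and 7, Cox8c had 1 read in all, and Cox7b2 had none.

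**Figure D3:**
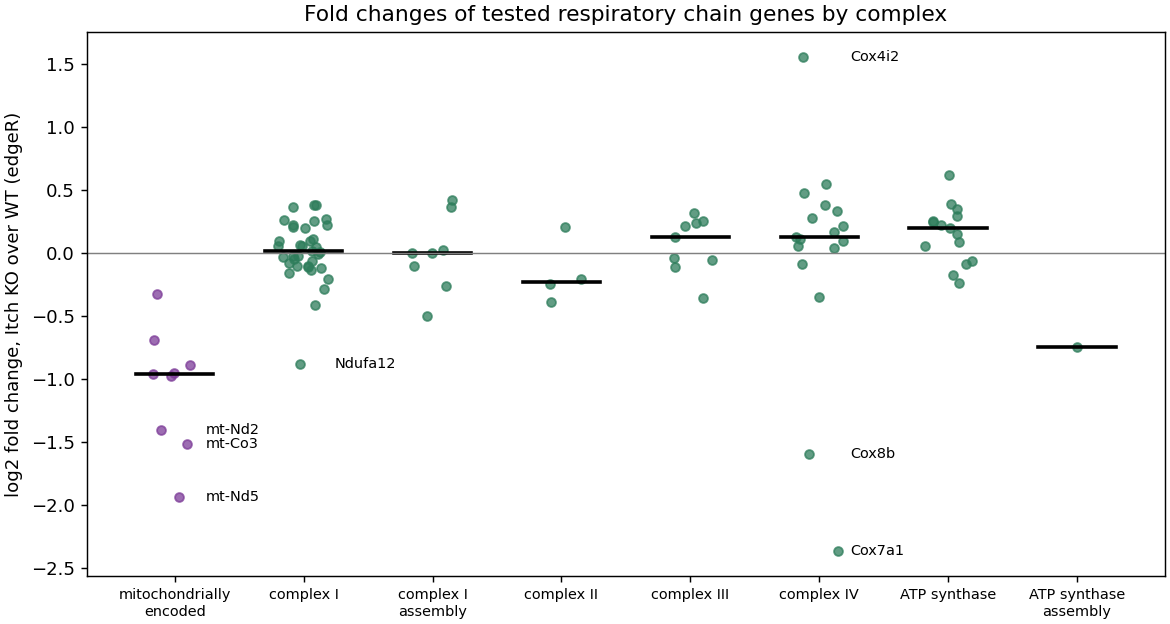
Each point is the edgeR log2 fold change (Itch KO over WT) of 1 tested gene, grouped into mitochondrially encoded genes and the nuclear genes of each complex, with sideways scatter for visibility and a black bar at the median. The 9 mitochondrial genes centre on -0.97, while the medians of the nuclear subunit groups lie between -0.23 and 0.19.

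Complex I, the NADH dehydrogenase, contributed 36 nuclear genes, 7 for core and 29 for accessory subunits. Their median log2 fold change was 0.01 (0.16 without WT replicate 1). The knockouts were above WT for 8 (22.2%, against 31.2% of all genes) and below for 3 (8.33%, against 30.0%). The 3 accessory subunits with the smallest p were Ndufa2, Ndufb7 and Ndufa8. Levels of Ndufa2 were 89.5 and 81.9 CPM in WT skin and 109 and 115 in knockout skin (log2 fold change 0.38, SE 0.15), with an adjusted p of 0.227. Levels of Ndufb7 were 92.6 and 84.3 CPM in WT skin and 109.9 and 120.5 in knockout skin (0.38, SE 0.15), and those of Ndufa8 103 and 82.0 against 114 and 124 (0.36, SE 0.18). The groups did not overlap for any of the 3. At the other end of the ranking, Ndufv1, the NADH-binding core subunit, stood at 197 and 156 CPM in WT skin and at 167 and 188 in knockout skin (0.01, SE 0.19, and 0.18 without WT replicate 1). Per kilobase, Ndufb9 was the highest of the nuclear complex I genes at 303 CPM per kb, with 239.9 and 192 CPM in WT skin and 207 and 214 in knockout skin.

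All 7 core subunits of complex I were higher in WT replicate 1 than in WT replicate 2, by a median of 1.31-fold. Their median log2 fold change was -0.07, and 0.14 without WT replicate 1. Ndufa12 was the lowest of the nuclear complex I genes in fold change and was picked out after its values were seen. It stood at 30.5 and 28.4 CPM in WT skin and at 9.27 and 22.7 in knockout skin (-0.88, SE 0.47), and knockout replicate 1 lay far below the other 3 libraries. Copies elsewhere in the genome cover 36.2% of its transcript, so its counts are uncertain. The 8 Nduf assembly factors, which build complex I but are not part of it, had a median of -0.01. Ndufaf4 (25.9 and 26.5 CPM in WT skin, 31.6 and 35.7 in knockout skin) and Ndufaf2 (15.2 and 18.3, then 20.7 and 23.99) were above WT in both knockouts. Ndufaf5 stood at 28.6 and 17.1 CPM in WT skin and at 13.9 and 18.4 in knockout skin, with overlap, and Ndufaf6 at 8.52 and 7.57 against 8.07 and 7.96.

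Complex II, succinate dehydrogenase, is made entirely from nuclear genes and also works in the citric acid cycle. None of its 4 genes separated the groups, and in each of them WT replicate 1 was above WT replicate 2, by a median of 1.5-fold. The flavoprotein gene Sdha had 422 and 233 CPM in WT skin and 241 and 257 in knockout skin (log2 fold change -0.40, SE 0.32, and 0.09 without WT replicate 1). The iron-sulfur protein gene Sdhb had 225 and 147 CPM in WT skin and 153 and 169 in knockout skin (-0.21, SE 0.25, and 0.13). Of the membrane anchors, Sdhc had 209 and 145 CPM against 142 and 156 (-0.25, SE 0.23, and 0.04), and Sdhd had 175 and 118 against 176 and 162 (0.20, SE 0.24, and 0.51). The sign for Sdha, Sdhb and Sdhc therefore turned when WT replicate 1 was left out.

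Complex III passes electrons from ubiquinol to cytochrome c, and its 9 nuclear genes had a median log2 fold change of 0.13. The 3 with the smallest p were Uqcrq, Uqcrh and Uqcrc2, and for each of them the groups did not overlap. Uqcrq stood at 168 and 159 CPM in WT skin and at 194 and 212 in knockout skin (0.31, SE 0.15), and Uqcrh, a hinge protein of the complex, at 162 and 168 against 188 and 203 (0.25, SE 0.14). Uqcrc2, a large matrix-side subunit, was lower in both knockouts, at 316 and 227 CPM in WT skin and 206 and 216 in knockout skin (-0.36, SE 0.22, and -0.11 without WT replicate 1). Cytochrome c1 (Cyc1), with 241 and 187 CPM in WT skin and 189.9 and 222 in knockout skin, and the Rieske iron-sulfur protein gene Uqcrfs1, with 228 and 159 against 174 and 183, overlapped. Uqcrc1 overlapped as well, at 370.4 and 279.6 CPM in WT skin and 299.8 and 332 in knockout skin, and Uqcr10, the highest of its nuclear genes per kilobase (332 CPM per kb), stood at 137 and 129.5 against 149.95 and 159.

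ATP synthase had 15 tested nuclear subunit genes, with a median log2 fold change of 0.19 (0.27 without WT replicate 1). Both knockouts were above both WT libraries for 8 (53.3%, against 31.2% of all genes) and below for 0 (against 30.0%). Of all genes with transcripts up to 891.5 bases, 47.9% were above, and no share was taken at matched length. The small membrane subunit gene Atp5mpl stood at 99.6 and 105 CPM in WT skin and at 129 and 139 in knockout skin (0.39, SE 0.14). Its p by edgeR was 0.049 unadjusted and 0.218 adjusted. Atp5k stood at 33.6 and 35.7 CPM in WT skin and at 44.3 and 43.6 in knockout skin (0.34, SE 0.16). The catalytic beta subunit gene Atp5b, the highest nuclear gene per kilobase at 588 CPM per kb, overlapped, at 1231 and 1075 CPM in WT skin and 1016 and 1184 in knockout skin (-0.07, SE 0.20, and 0.03 without WT replicate 1). Among the 3 genes for the c subunit of the rotor, whose mature proteins are alike, Atp5g3 was by far the highest, at 314 and 309 CPM in WT skin and 364 and 398 in knockout skin (0.29, SE 0.16). Atp5g1 stood at 23.9 and 13.9 CPM against 17.5 and 21.8 (0.06, SE 0.35, and 0.50 without WT replicate 1), and Atp5g2, with 88.2% of its transcript covered by copies, was at 0.378 to 0.694 CPM. Atp5s, a gene named for ATP synthase but counted apart from the subunits, stood at 17.6 and 10.6 CPM in WT skin and at 8.20 and 8.59 in knockout skin (-0.75, SE 0.34, and -0.34 without WT replicate 1).

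The nuclear subunits of complex IV, cytochrome c oxidase, come partly as tissue isoforms. Over the 17 tested genes the knockouts were above WT for 9 (52.9%, against 31.2% of all genes) and below for 2 (11.8%, against 30.0%). Here too, the share above was 47.9% of all genes with transcripts up to 891.5 bases. The median log2 fold change of the 17 was 0.12. The general isoforms were level or higher in knockout skin. Cox4i1 stood at 322 and 297 CPM in WT skin and at 377 and 401 in knockout skin (0.33, SE 0.16), Cox6a1 at 167 and 234 against 268 and 317 (0.55, SE 0.23, and 0.32 without WT replicate 1), and Cox6b1 at 203 and 209.8 against 253 and 285 (0.38, SE 0.15). Groups did not overlap for these 3. For Cox7b, at 153 and 138 CPM in WT skin and 152 and 147 in knockout skin (0.04, SE 0.15, and 0.11 without WT replicate 1), and Ndufa4, a subunit once assigned to complex I, at 219 and 199 against 221 and 213 (0.06, SE 0.15, and 0.12 without WT replicate 1), they did. The paralog Ndufa4l2, known as a hypoxia-induced gene, stood at 212 and 189 CPM in WT skin and at 183 and 131 in knockout skin (-0.35, SE 0.22). Cox6b2, known from testis, stood at 2.997 and 4.60 CPM against 4.79 and 5.79 (0.48, SE 0.39, and 0.20 without WT replicate 1), and Cox7a2l, a supercomplex factor, at 121 and 123 against 139 and 124 (0.11, SE 0.15).

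Cox4i2, the isoform of subunit 4 known from lung and from hypoxia, had the smallest adjusted p of all 99 genes. It was low, at 1.40 and 2.52 CPM in WT skin and 4.67 and 6.87 in knockout skin (log2 fold change 1.55, SE 0.48, and 1.19 without WT replicate 1), with an adjusted p of 0.176 by edgeR and 0.089 by DESeq2. Of the reads of Cox4i1 and Cox4i2 together, Cox4i2 held 0.433% and 0.842% in WT skin and 1.22% and 1.68% in knockout skin. Both knockouts were above both WT libraries, and the 2 WT libraries differed by nearly as much as WT replicate 2 and knockout replicate 1.

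The isoforms known from skeletal and heart muscle, Cox7a1 and Cox8b, stood far higher in WT replicate 1 than in the other 3 libraries. Cox7a1 (chr7:30184144-30186078) stood at 60.8 and 9.65 CPM in WT skin and at 5.93 and 7.70 in knockout skin. Its log2 fold change was -2.37 (SE 0.94), with an adjusted p of 0.240 by edgeR and 0.035 by DESeq2, and -0.50 without WT replicate 1. Cox8b (chr7:140898945-140900446) stood at 95.7 and 17.1 CPM in WT skin and at 18.99 and 18.2 in knockout skin (-1.60, SE 0.85). Without WT replicate 1 its fold change was 0.12, so its sign turned. Cox7a1 made up 30.4% of the reads of the pair Cox7a1 and Cox7a2 in WT replicate 1 (95% exact binomial interval 28.8 to 32.1%), and 5.90%, 3.63% and 4.32% in WT replicate 2 and knockout replicates 1 and 2. Cox8b made up 36.2%, 7.95%, 8.61% and 7.003% of Cox8a and Cox8b in the same order.

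Their general partners showed no such library. Cox7a2 stood at 139 and 154 CPM in WT skin and at 158 and 171 in knockout skin (0.16, SE 0.15, and 0.09 without WT replicate 1), and Cox8a at 169 and 198 against 201 and 242 (0.27, SE 0.18, and 0.16 without WT replicate 1). The 22 skeletal muscle markers, which include the subunit gene Cox6a2, summed to 21556 CPM in WT replicate 1 and to 3433, 1669 and 1453 CPM in the others. Both knockouts were below both WT libraries for 15 of the 21 that were tested (71.4%, against 30.0% of all genes). All 21 were higher in WT replicate 1 than in WT replicate 2, by a median of 7.48-fold, close to the 6.30-fold of Cox7a1 and the 5.60-fold of Cox8b. For the white fat markers the sums were 4826, 2552, 3318 and 3436 CPM, and the brown fat gene Ucp1 was at or below 0.445 CPM in all libraries. The part of muscle in the values of WT replicate 1 was not tested.

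**Figure D4:**
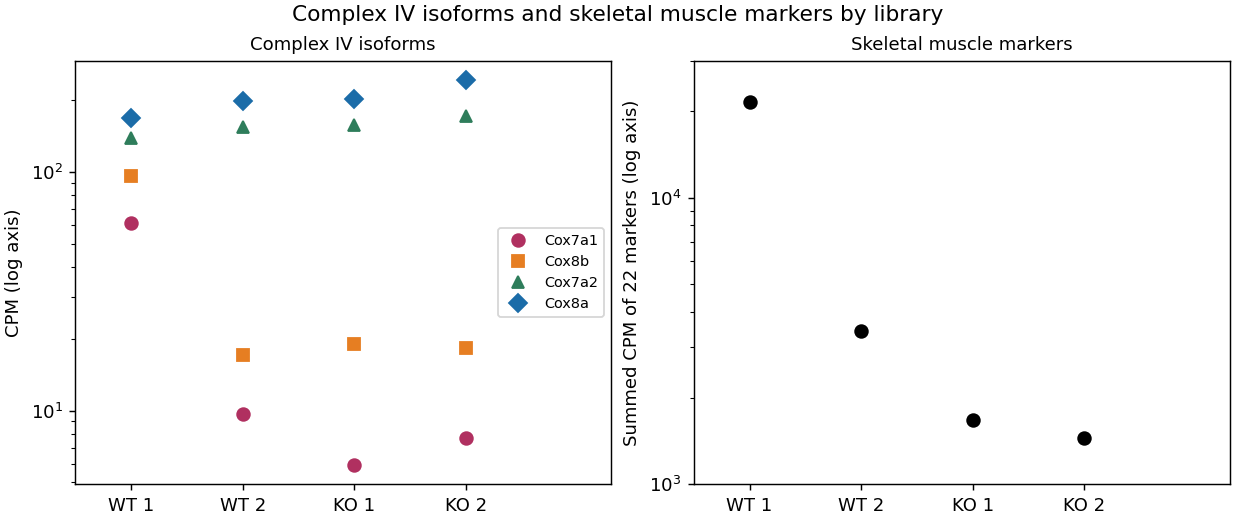
Left, CPM (log axis) of the complex IV isoforms Cox7a1 and Cox8b and of their general partners Cox7a2 and Cox8a in each library. Right, the summed CPM (log axis) of 22 skeletal muscle markers, which is 21556 in WT replicate 1 and 1453 to 3433 in the other 3, where Cox7a1 and Cox8b are also low.

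Promoter sequence differed between the pair Cox8b and Cox8a, which is why both are printed. Atp5g3 is printed as an example of a gene with a match to the binding motif of NRF1, a regulator of respiratory chain genes. Sequences run from 250 bases before to 50 after the gene start (RefSeq, GRCm38.p6), 5′ to 3′ on the gene's strand, and capitals mark motif matches on either strand.
Cox8b (chr7:140900397-140900696, minus strand): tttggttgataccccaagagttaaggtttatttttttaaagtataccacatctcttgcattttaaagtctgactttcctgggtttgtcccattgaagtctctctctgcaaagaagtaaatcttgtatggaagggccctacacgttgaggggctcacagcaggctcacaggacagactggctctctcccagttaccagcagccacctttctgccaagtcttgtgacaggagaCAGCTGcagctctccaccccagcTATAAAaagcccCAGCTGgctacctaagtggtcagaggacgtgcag
Cox8a (chr19:7217567-7217866, minus strand): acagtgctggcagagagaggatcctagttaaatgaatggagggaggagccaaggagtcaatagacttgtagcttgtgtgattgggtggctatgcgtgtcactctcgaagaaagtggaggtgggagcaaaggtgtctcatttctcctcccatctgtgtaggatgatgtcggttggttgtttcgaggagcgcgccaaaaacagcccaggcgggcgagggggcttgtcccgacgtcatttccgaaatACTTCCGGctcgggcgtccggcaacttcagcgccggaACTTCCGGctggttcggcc
Atp5g3 (chr2:73911277-73911576, minus strand): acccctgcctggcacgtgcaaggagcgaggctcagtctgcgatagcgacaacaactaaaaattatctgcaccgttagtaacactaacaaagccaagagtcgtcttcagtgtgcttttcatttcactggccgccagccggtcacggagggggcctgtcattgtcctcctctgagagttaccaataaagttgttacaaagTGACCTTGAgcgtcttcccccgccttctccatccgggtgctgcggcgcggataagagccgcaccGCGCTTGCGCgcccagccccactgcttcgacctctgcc
The capitals are matches to the E-box CAGCTG, which myogenic factors bind, and to TATAAA in Cox8b, to the ETS motif CCGGAAGT on the opposite strand in Cox8a, and to the NRF1 motif (GCGCA and GCGC with any 1 base between them) and the estrogen-related receptor motif TCAAGGTCA, both on the opposite strand, in Atp5g3. Of the 93 nuclear genes, 76 matched an entry by symbol. A match to the NRF1 motif stood in 19 of the 76 (25.0%), against 5.19% of the promoters of all 27025 genes. The ETS motif stood in 5 (6.58%, against 4.31%), the estrogen-related receptor motif in 2 (2.63%, against 0.466%), CAGCTG in 6 (7.89%, against 18.3%) and TATAAA in 7 (9.21%, against 15.7%). The median log2 fold change was 0.20 for the 18 tested genes with an NRF1 match and 0.05 for the 56 without. No test was made of these shares or medians, and a match is a description of the letters only.

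Shorter nuclear transcripts had higher fold changes, among respiratory chain genes as in the whole table. Across the 90 nuclear genes, Spearman's rho between log2 fold change and transcript length was -0.50 (-0.38 without WT replicate 1), and across 16501 genes it was -0.24 (-0.20). Split at 891.5 bases, the median length of the 90, the knockouts were above both WT libraries for 27 of the 45 shorter genes and for 4 of the 45 longer ones. Their median fold changes were 0.22 and -0.06 on the log2 scale, and 0.27 and 0.12 without WT replicate 1, so the sign of the longer group turned. Over all genes the knockouts were above for 47.9% of those up to that length and for 29.3% of longer ones, with medians of 0.25 and -0.02 (0.18 and -0.0015 without WT replicate 1).  Genes are not independent replicates, and the points share their 4 libraries.

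Without WT replicate 1 the median log2 fold changes of the complexes lay closer together. They were 0.16 for complex I, 0.11 for complex II, 0.22 for complex III, 0.16 for complex IV and 0.27 for ATP synthase, against -0.60 for the mitochondrial genes. Without WT replicate 2, the nuclear median was -0.05 and the mitochondrial -1.29, and without knockout replicate 1 or 2 the nuclear medians were 0.10 and 0.03 and the mitochondrial -1.18 and -0.89, each over the genes that passed the filter in that setting.

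**Figure D5:**
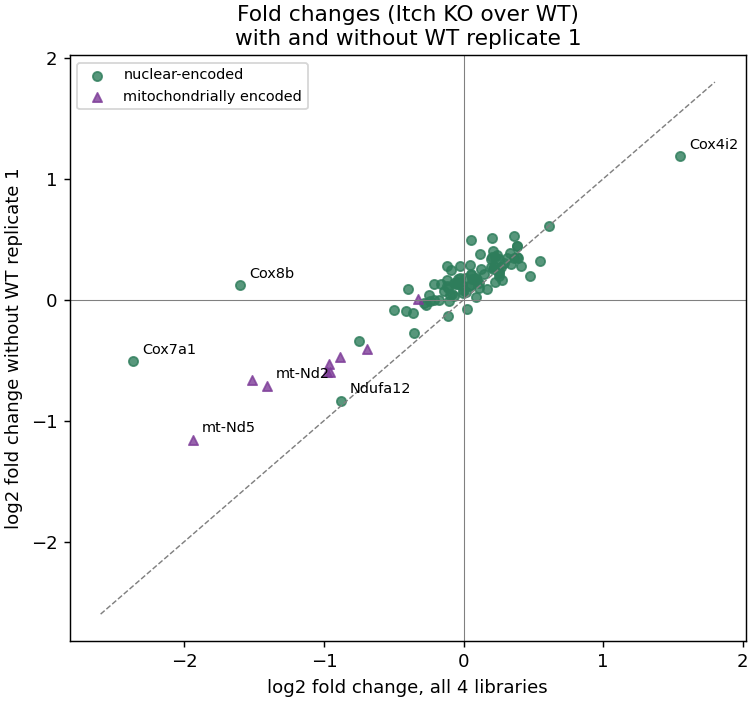
Log2 fold change (Itch KO over WT) of each tested gene over all 4 libraries (horizontal) and without WT replicate 1 (vertical), with mitochondrially encoded genes as triangles and nuclear genes as circles. The dashed line marks equal values. Cox7a1 moves from -2.37 to -0.50 and Cox8b from -1.60 to 0.12, while mt-Nd5 moves from -1.94 to -1.16.

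Other genes of the pathway were read from lists. By edgeR, 0 of their genes passed the adjusted threshold. At an unadjusted p under 0.05 they held the few genes stated with each list, and DESeq2 called genes of the biogenesis list alone. In the citric acid cycle, 7 of 20 genes were below WT in both knockouts (35.0%, near the 30.0% of all genes). The count above was 0, against 31.2%. Their median log2 fold change was -0.29, and 0.02 without WT replicate 1. By edgeR, 0 had an unadjusted p under 0.05, against 22.8% of all genes. Pdha1, a pyruvate dehydrogenase subunit, stood at 276 and 135 CPM in WT skin and at 112 and 96.3 in knockout skin, and Sucla2, a succinyl-CoA ligase subunit, at 272 and 168 against 145 and 158. Of 18 genes for electron carriers and their synthesis, 5 were below (27.8%, near the 30.0% of all genes) and 1 above (5.56%, against 31.2%). The latter, Pdss1, was the list's single gene at an unadjusted p under 0.05 by edgeR (5.56%, against 12.0% of all genes higher). Coq9, a ubiquinone synthesis factor, stood at 161 and 79.7 CPM in WT skin and at 63.3 and 61.2 in knockout skin, and Pdss1, which makes the ubiquinone side chain, at 7.19 and 15.0 against 28.1 and 24.4.

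Regulators of mitochondrial biogenesis were lower for 8 of 18 genes (44.4%, against 30.0% of all genes) and higher for 1 (against 31.2%), with a median of -0.22 (-0.12 without WT replicate 1). At an unadjusted p under 0.05, 5 of the 18 were lower (27.8%, against 10.9%). Perm1, a muscle-expressed regulator, stood at 139 and 75.5 CPM in WT skin and at 36.8 and 28.1 in knockout skin (log2 fold change -1.72, SE 0.36), with an adjusted p of 0.113 by edgeR. Ppara, a fatty acid receptor, stood at 14.4 and 6.24 CPM against 2.21 and 1.34 (-2.53, SE 0.58). DESeq2 called 4 genes of the list lower (22.2%, against 6.16%), these among them. Of 27 genes for the expression of mitochondrial DNA, 5 were above (18.5%, against 31.2% of all genes) and 6 below (22.2%, against 30.0%). Their median was -0.03, and 0 had an unadjusted p under 0.05 by edgeR, against 22.8% of all genes. Polg, the mitochondrial DNA polymerase, stood at 73.4 and 62.8 CPM in WT skin and at 46.7 and 52.7 in knockout skin, and Slirp, which stabilizes mitochondrial messages, at 15.4 and 21.4 against 26.3 and 24.7.

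Of the genes for import and carriers, 10 of 18 were above (55.6%, against 31.2% of all genes) and 3 below (16.7%, against 30.0%). Their median was 0.23. At an unadjusted p under 0.05 by edgeR, 1 was higher (Hspd1), or 5.56% against 12.0% of all genes. The chaperonin genes Hspd1 (56.1 and 69.0 CPM in WT skin, 82.3 and 106.7 in knockout skin) and Hspe1 (30.4 and 45.3, then 55.8 and 63.8) were above WT in both knockouts. Assembly factors were mixed. By edgeR, 3 of them had an unadjusted p under 0.05 (Dmac1 higher, Uqcc1 and Lyrm7 lower), against 22.8% of all genes in either direction. The counts of assembly factors above and below WT are to be read against 31.2% of all genes above and 30.0% below. For complex I beyond the Nduf family 2 of 11 were above and 4 below, among them Dmac1 (39.2 and 38.0 CPM in WT skin, 49.4 and 57.0 in knockout skin) and Tmem126b (39.6 and 29.3, then 26.4 and 28.1). For complexes II and III 4 of 10 were above and 3 below, among them Uqcc1 (81.6 and 39.8 CPM, then 26.4 and 28.8) and Lyrm7 (7.59 and 4.22, then 2.40 and 2.48). For complex IV 4 of 17 were above and 4 below, with Pet100 above (32.6 and 39.2 CPM, then 49.7 and 49.1) and Cox11 below (5.13 and 4.10, then 2.78 and 2.67). For ATP synthase 1 of 5 was above and 2 below, the latter Atpaf1 (14.5 and 11.0 CPM, then 8.58 and 9.10) and Tmem70 (63.3 and 56.2, then 49.1 and 52.0).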

How the data were processed

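RNA was measured in 4 mouse skin libraries, 2 WT and 2 Itch KO, grouped by the sample labels. The authors deposited read counts per Ensembl gene without normalization, 1 file per library. The submitters' processing notes name HTSeq 0.6.1, TopHat2, SAMtools 0.1.19 and CASAVA 1.8.2, and give mm10 (GRCm38) as the genome build. Not given in the sources used here: the annotation release, strand setting and read filters. Of the 39179 identifiers, 37607 were in GENCODE vM21, the source of symbols and coordinates. The 5 special counters stayed out of library sizes: reads without a feature were 5.68 to 7.45% and ambiguous reads 4.48 to 4.70%. A count of 0 allows 0.187 to 0.198 CPM at a floor of 3 counts. Floors and intervals cover counting error only.

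Groups were compared with edgeR 4.0.16 under R 4.3.3 (filterByExpr with a minimum count of 10, TMM, quasi-likelihood F test with legacy=TRUE and robust=TRUE, two-sided, Benjamini-Hochberg adjustment over 16651 genes, threshold 0.05). The standard error is the fold change divided by the square root of F. DESeq2 1.42.0 and limma 3.58.1 (voom) were alternatives. Near-identical copies were found with BLAST 2.17.0 (at least 97% identity over 50 bases), and 74 of the 93 nuclear genes had none. Exons of 26 nuclear genes overlap another counted gene, so their counts are uncertain. The procedure was run on simulated counts in which no library stood apart from its group. That run therefore says nothing on the effect of WT replicate 1.

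The members and lists were chosen with earlier results of these data known. Named genes were all 13 mitochondrial and all complex II genes, the isoform families, Cyc1 and Uqcrfs1, from each group the 3 genes of smallest p, the highest per length and the 1 of largest p, and from each list the 2 of smallest p. Ndufa12, Ndufs1 and Atp5s were named after their values were seen, as were the single keratinocyte and brown fat markers. The list symbols Coa1, Sqrdl, Fastkd4, Flg and Krt85 had no match. Red cell markers summed to 47.3, 43.3, 263 and 539 CPM in library order (WT, then knockout).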

Additional observations from a re-analysis of the deposited data

How the results depend on the processing

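The median log2 fold changes of the nuclear and mitochondrial genes kept within the spread between replicates in all alternatives run. Leaving out 1 library gave nuclear medians of -0.05 to 0.17 and mitochondrial medians of -1.29 to -0.60. Those shifts come from the same differences between replicates, so that spread is no separate yardstick for them. Restricting to nuclear genes without an annotated copy gave 0.04, and to mitochondrial genes with over 100 counts -0.97, both chosen after seeing the data. Counts of calls did depend on the setting. Over all genes, 1 passed the adjusted threshold by edgeR, 2329 by DESeq2, 0 by limma-voom and 488 with no filter, and leaving out 1 library gave 0 to 5320. At an unadjusted p under 0.05, 2 respiratory chain genes were higher, against 1 by DESeq2, limma-voom, RLE size factors, library totals or the filter of 50 counts, and 0 to 5 with 1 library left out. The 5 lower became 9 by DESeq2 and 1 to 19 with 1 library left out (2 without WT replicate 1, 19 without WT replicate 2 and 1 without either knockout). With the replicate block, 0 genes passed over the whole table, 2 members were higher and 7 lower, and the medians were 0.06 and -0.94. At the unadjusted threshold, shares of all genes were taken only for the main setting and without WT replicate 1. Calls over all genes moved with the setting as well. The shifts in these member counts therefore do not show a change particular to the respiratory chain genes. The replicate numbers share no litter or batch in the labels, and same-numbered libraries had a correlation of 0.186 in their deviations. The mitochondrial to nuclear ratio on the log2 scale was 0.78, 0.20, -0.30 and -0.92 in library order from summed reads, and 4.91, 3.95, 3.21 and 2.56 from the medians of log2 CPM of the members.

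Signs turned for Cox7b (-0.0084) and Ndufv1 (-0.037) with the filter of 50 counts, for Ndufv1 (-0.017) with library totals and for Ndufaf6 (0.024) with no filter. With 1 library left out, the ranges that crossed 0 were -0.97 to 0.11 for mt-Co2, -0.28 to 0.50 for Atp5g1, -0.032 to 0.11 for Cox7b, -2.36 to 0.12 for Cox8b, -0.22 to 0.13 for Cyc1, -0.0063 to 0.12 for Ndufa4, -0.76 to 0.092 for Sdha, -0.48 to 0.13 for Sdhb, -0.49 to 0.036 for Sdhc, -0.047 to 0.51 for Sdhd, -0.35 to 0.16 for Uqcrfs1, -0.15 to 0.18 for Ndufv1, -0.18 to 0.13 for Ndufb9, -0.084 to 0.079 for Ndufaf6, -0.23 to 0.17 for Uqcrc1 and -0.18 to 0.032 for Atp5b. The causes were not tested.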
